A study of Drosophila melanogaster with 6 samples.

Results

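The Fat, Dachsous and Hippo growth control genes were followed through 6 RNA libraries of Drosophila melanogaster leg discs, the larval epithelial sacs that form the adult legs. The 10 genes were ft, ds, fj, hpo, sav, wts, ex, Mer, kibra and yki. They were picked by name for their place in the pathway, out of 17612 genes in the count table. The rule of choice used no measured value, but earlier results of these data were known when it was made. All 10 were matched by FlyBase identifier and all 10 had enough counts to be among the 8802 genes tested. The libraries fall into WT (wild type, n = 3) and Double (n = 3), the second genotype being described as a PRE deletion. A PRE, or Polycomb response element, is DNA that recruits the Polycomb group repressors. Which elements were deleted, and in which strain, is not stated in the labels, and both groups came from third-instar larvae raised at 25 °C, with 20 discs pooled per library. Nothing says that the replicates came from different crosses, so p-values here rest on a spread among libraries that may be technical.

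In imaginal discs the Hippo pathway limits growth. Hippo, a Ste20-family kinase bound to the scaffold Salvador, activates the kinase Warts, and Warts phosphorylates the coactivator Yorkie and keeps it out of the nucleus. Expanded, Merlin and Kibra act upstream at the apical cell membrane and promote Hippo and Warts activity. Fat and Dachsous are giant atypical cadherins that bind each other across cell contacts, and Four-jointed is a Golgi kinase that phosphorylates cadherin domains of both and tunes that binding. Fat signalling restrains the myosin Dachs, which lowers Warts levels. Yorkie, with its DNA-binding partner Scalloped, activates ex, kibra, Mer and fj among other genes, which gives the pathway negative feedback.

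None of the 10 genes changed between the genotypes in edgeR's quasi-likelihood test (Benjamini-Hochberg adjusted p under 0.05 over all tested genes), against 1.49% of all tested genes. Their log2 fold changes, Double against WT, ran from -0.13 for hpo to 0.30 for ds, and the smallest adjusted p was 0.325, that of ds. The 95% intervals of the 10 genes, not adjusted for their number, together spanned 0.828-fold to 1.48-fold, so that a change of 1.5-fold or more lay outside each of them. At an unadjusted p under 0.05 stood 2 of the 10, ds and wts, beside 12.3% of all tested genes. Over the alternative settings given at the end this count ran from 0, without Double replicate 1 or 3, to 4, without WT replicate 1. The 3 Double libraries did not overlap the 3 WT libraries for ds and wts, which were above, and for hpo, which was below. Over all tested genes 19.5% had groups that did not overlap, 10.3% with Double above and 9.11% with Double below. The median log2 fold change of the 10 genes was 0.12, with 8 above 0 and 2 below, and that of all tested genes was 0.00. The median of the 10 genes ran from 0.06 to 0.14 over the alternative settings given at the end.

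The 10 genes lie on 4 chromosome arms (coordinates of dm6, from the Ensembl annotation of BDGP6). Arm 2L carries ex (plus strand, 431227 to 448701), ds (minus strand, 640013 to 714983) and ft (minus strand, 4198404 to 4221796). A gap of 191.3 kb separates ex from ds. Arm 2R carries fj (plus strand, 18232761 to 18236311), hpo (minus strand, 19493996 to 19496856) and yki (minus strand, 24065975 to 24068485). On the minus strand of 3R lie kibra (14697689 to 14724261), sav (23058609 to 23061304) and wts (30789625 to 30806619), and on that of X lies Mer (19689697 to 19693500). The annotated exons add up to very different lengths, 16852 bases for ft and 12427 for ds at one end and 1525 for yki at the other. The gene fj is a single exon that fills its span of 3551 bases.

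A few exons are shared with neighbours. On the opposite strand, ex shares 448 exonic bases with the scavenger receptor gene crq, hpo shares 130 with Rep and ds shares 125 with lncRNA:CR44988. On the same strand, sav shares 73 with Ctns. These stretches were at most 6.71% of the member's exons. Library preparation kept the strand, yet no source used here says whether the counting did, and reads in these stretches may therefore be mixed.

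The libraries held 8818943 to 13605668 counts each, and 131 genes had changed across the table, 48 higher (0.545%) and 83 lower (0.943%) in Double. The gene dac, taken from background knowledge as the candidate target since the labels name none, stood at 581 to 613 CPM (counts scaled to library size) in WT and 409 to 417 CPM in Double (edgeR adjusted p = 0.003869). Its distance on 2L was 12.2 Mb from ft, 15.8 Mb from ds and 16.0 Mb from ex. As a check of the tissue label, 8 leg disc marker genes summed to 1955 to 2116 CPM in every library, and 5 wing and haltere disc marker genes to 197 to 225 CPM. Of the latter, nub read 62.5 to 85.0 CPM and the wing selector vg at most 6.70 CPM. The leg disc sum had a 1.08-fold range over the libraries, the myoblast sum 1.06-fold and the tracheal sum 1.18-fold, while fat body and salivary gland sums varied far more. The steady leg disc sum held genes that leaned opposite ways. Dll, Sp1 and Antp were higher in every Double library than in any WT library (log2 fold changes 0.24, 0.11 and 0.29), and Scr was lower (-0.25). None of the 8 leg disc genes passed the test (smallest edgeR adjusted p = 0.292), and 19.5% of all tested genes had groups that did not overlap. In order of replicate number, 7 fat body genes summed to 194, 6843 and 4786 CPM in the WT libraries, followed by 13631, 3289 and 8597 CPM for Double. For 7 salivary glue genes the sums were 8.18, 66.7 and 2811 CPM for WT, then 3340, 942 and 1471 CPM for Double, so WT replicate 1 was the lowest in both. Of these lists 0 of 7 and 0 of 7 genes passed the test, and none was at 0 in all libraries. Within each list the genes did not all move alike. Among the fat body genes 6 had a log2 fold change above 0, and Fbp2 had one of -3.53. Among the glue genes 6 were above 0, with a range from -0.485 for Sgs5 to 6.05 for Sgs1 (edgeR adjusted p = 0.0678 for Sgs1). Of 6 tested muscle genes 2, up and Mp20, were lower in Double, where the 7 listed muscle genes summed to 21.9 to 33.1 CPM against 42.9 to 64.4 CPM in WT. No gene passed among 7 neuron and glia, 6 myoblast, 6 haemocyte and 5 tracheal markers. The part of other tissue in the values of the 10 genes was not tested. In bulk tissue, fewer cells of a type and less RNA per cell cannot be told apart.

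WT replicate 1 also stood apart by gene length. Against the mean of the other 2 WT libraries, the median tested gene with under 1 kb of exons stood 0.18 higher on the log2 scale in that library, and the median of the 144 genes with at least 12 kb stood at -0.43. The Double libraries stayed between -0.08 and 0.06 over the same length classes. Of those 144 long genes 101 (70.1%) had their lowest level in WT replicate 1, against 26.3% of all tested genes. Among the 10 genes the longest 3 followed this order, with deviations of -0.47 for ft, -0.41 for ds and -0.34 for ex, while yki, the shortest, stood 0.19 higher there. Results on ft, ds and ex are therefore given with and without that library.

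**Figure D1:**
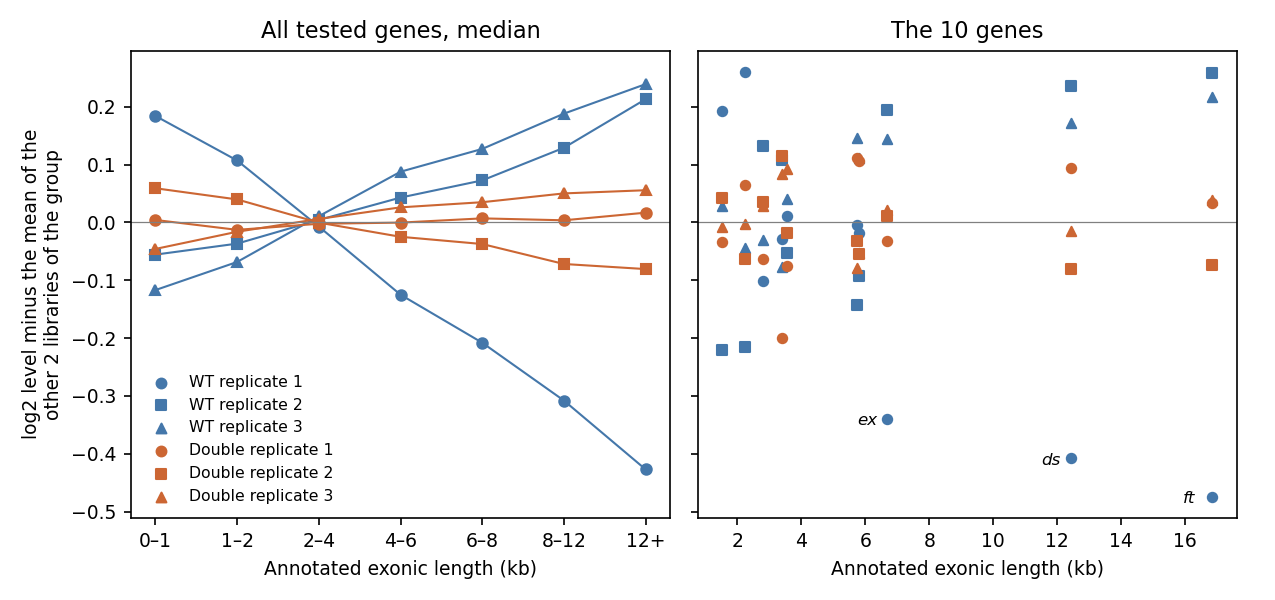
Deviation of each library from the mean of the other 2 libraries of its group (log2 level, vertical axis) against annotated exonic length (kb), as the median of all tested genes in 7 length classes (left) and for each of the 10 genes (right). Blue marks WT and orange Double, with 1 symbol per replicate. In WT replicate 1 the median falls from 0.18 for the shortest class to -0.43 for the longest, and ft, ds and ex lie at -0.47, -0.41 and -0.34.

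Levels per length were compared as CPM per kb of annotated exon. The order by group mean was the same in both genotypes, namely ex, fj, ds, ft, yki, hpo, wts, sav, Mer and kibra. The Yorkie target ex led with 112 ± 14.7 (SD, n = 3) in WT and 123 ± 1.63 (SD, n = 3) in Double. The Golgi kinase gene fj followed with 83.5 ± 1.84 and 84.1 ± 3.33 CPM per kb (SD, n = 3 each). At the low end were Mer with 17.4 ± 0.78 and 16.5 ± 1.29 and kibra with 13.6 ± 0.91 and 15.0 ± 0.69 CPM per kb (SD, n = 3 each). Both sat near the middle of all tested genes, at percentiles 51.7 and 46.5 of the level per length, and ex at 93.5. The WT libraries of neighbours in this order overlapped for ds and ft, ft and yki, yki and hpo, and sav and Mer. In Double only Mer and kibra overlapped. The 3 upstream regulators thus held both ends of the range, and the coactivator gene yki, at 46.8 ± 4.46 and 50.8 ± 0.93 CPM per kb (SD, n = 3 each), stood above the 3 kinase cassette genes by group mean.

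**Figure D2:**
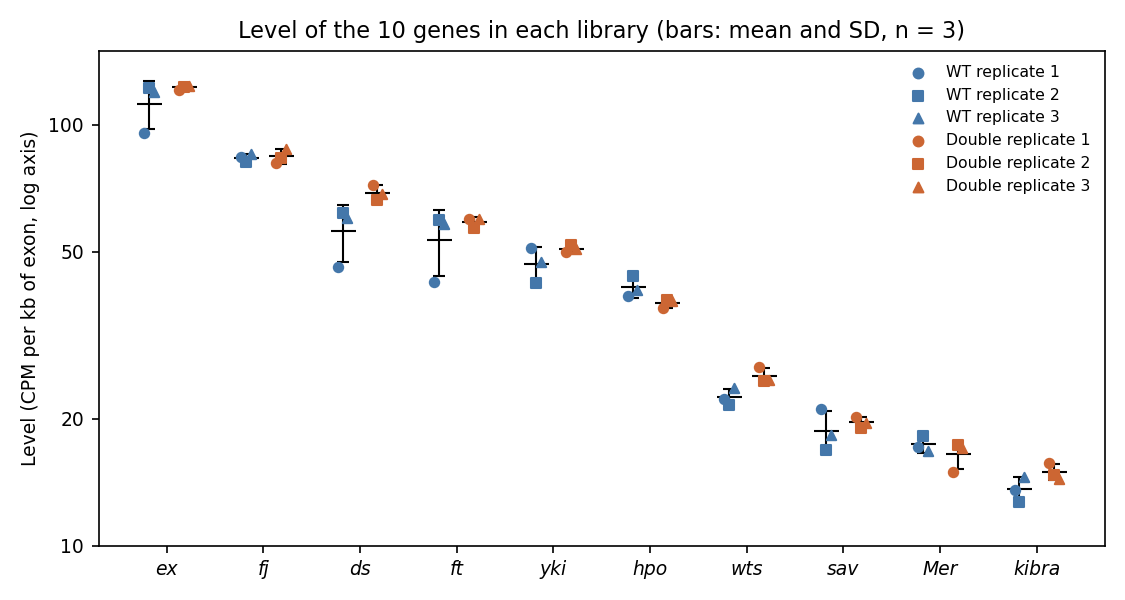
Level of each of the 10 genes in every library, in CPM per kb of annotated exon on a log axis, with genes ordered by their WT mean. Blue points are the 3 WT and orange points the 3 Double libraries, and bars give the mean and SD. The mean runs from 112 for ex to 13.6 for kibra in WT, and WT replicate 1 lies below all other libraries for ex, ds and ft.

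Of the Fat branch, ds, the cadherin that acts as the ligand of Fat, had the largest fitted fold change of the 10 genes over all 6 libraries. Without WT replicate 1 that place went to yki, with log2 fold changes of 0.183 for yki and 0.181 for ds. In order of replicate number, ds read 570.1, 768 and 745 CPM in the WT libraries and 895, 825 and 851 CPM in the Double libraries, the order used for every gene here. Every Double library lay above every WT library. The means were 694 ± 108 and 857 ± 35.1 CPM (SD, n = 3 each), a 1.23-fold difference with a log2 fold change of 0.30 (SE 0.11, 95% interval 0.05 to 0.56). It did not pass the test (edgeR unadjusted p = 0.0261, adjusted p = 0.325). Without WT replicate 1 the log2 fold change of ds was 0.18 with an SE of 0.05 (edgeR adjusted p = 0.171). With each library's length trend taken out, a setting chosen after seeing the data, it was 0.21 (SE 0.05; edgeR adjusted p = 0.0895).

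The receptor gene ft, a tumour suppressor of discs, read 712, 999 and 980 CPM in the WT libraries and 1006, 957 and 1008 CPM in the Double libraries. WT replicate 1 was low and the other 5 libraries lay together, so the groups overlapped. For ft the log2 fold change came to 0.14 (SE 0.12, 95% interval -0.14 to 0.43; edgeR adjusted p = 0.679). Without WT replicate 1 it was 0.00 (SE 0.05), and with the length trend taken out 0.04 (SE 0.04).

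The modifier gene fj was the steadiest of the 10 genes. It read 298, 289 and 302 CPM in the WT libraries and 288, 296 and 312 CPM in the Double libraries, and its highest library was 1.08 times its lowest. Its log2 fold change was 0.01 (SE 0.06, 95% interval -0.13 to 0.15; edgeR adjusted p = 0.959). The pooled replicate SD of fj was 0.05 on the log2 scale, against 0.20 for ft, 0.17 for ds and a median of 0.14 over all tested genes.

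Ratios of 2 genes within a library need no scaling factor, and 4 were compared as levels per kb of exon. The ratio of ds to ft was 1.09, 1.04 and 1.03 in WT and 1.21, 1.17 and 1.14 in Double. The groups did not overlap, and the mean log2 ratio was 0.16 higher in Double (exact two-sided permutation test, p = 0.1, the smallest p that 3 against 3 allows; 0.4 adjusted over the 4 ratios). WT replicate 1 had the highest WT ratio, and ft is the longer of the 2 genes. Without that library the difference was 0.18, with the length trend taken out 0.17, and over all libraries left out in turn it stayed between 0.14 and 0.18. The ratio of fj to ft was 1.99, 1.38 and 1.46 in WT and 1.36, 1.47 and 1.47 in Double, and the groups overlapped (exact two-sided permutation test, p = 0.6, adjusted 0.933). WT replicate 1, at 1.99, combined a low ft level with an fj level like that of the other libraries. The log2 difference of this ratio was -0.15, and 0.01 without that library.

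**Figure D3:**
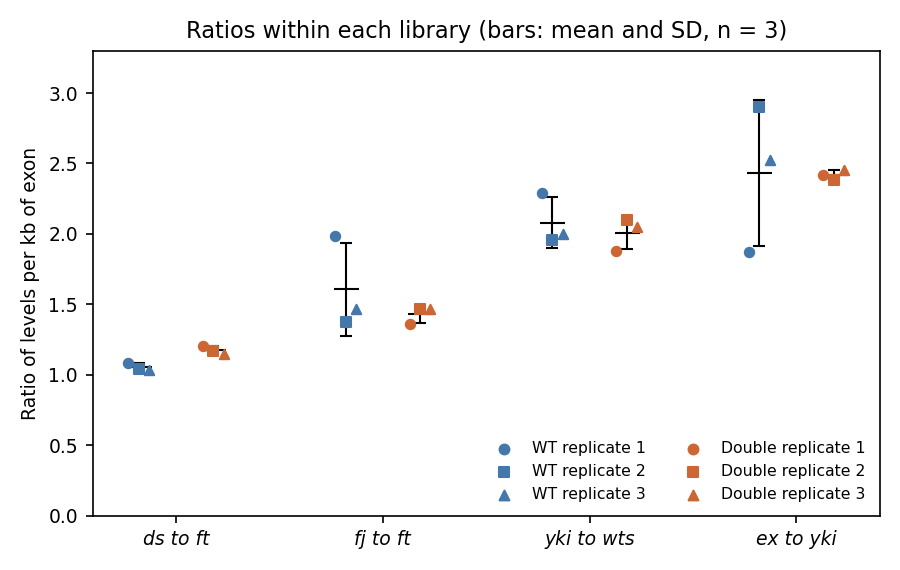
Ratios of levels per kb of exon within each library, for ds to ft, fj to ft, yki to wts and ex to yki. Blue points are WT and orange points Double libraries, with bars for the mean and SD. For ds to ft the Double libraries lie at 1.14 to 1.21 and the WT libraries at 1.03 to 1.09, and in the other 3 ratios the groups overlap.

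Among the upstream regulators, ex, which encodes a FERM-domain protein and is a standard readout of Yorkie activity, read 637, 815 and 797 CPM in the WT libraries and 806, 823 and 827 CPM in the Double libraries. Again WT replicate 1 alone was low, and the groups overlapped. The log2 fold change of ex was 0.13 (SE 0.10, 95% interval -0.09 to 0.35; edgeR adjusted p = 0.640), and it was 0.02 (SE 0.05) without WT replicate 1. The other FERM-domain gene, Mer, the fly NF2 homologue, read 58.3, 62.1 and 57.0 CPM in the WT libraries and 51.0, 59.0 and 58.1 CPM in the Double libraries. Double replicate 1 was the lowest, and the other 5 libraries interleaved (log2 fold change -0.08, SE 0.08, edgeR adjusted p = 0.739). Without Double replicate 1 it was -0.02. The WW-domain scaffold gene kibra read 78.0, 73.2 and 83.6 CPM in the WT libraries and 90.6, 84.8 and 83.0 CPM in the Double libraries. Only Double replicate 3 fell within the WT range (log2 fold change 0.14, SE 0.07, edgeR adjusted p = 0.499). With the length trend taken out it was 0.06, and without WT replicate 1 it was 0.13 (SE 0.08).

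In the kinase cassette, the Hippo and Warts genes leaned opposite ways and neither passed. The upstream kinase gene hpo read 110.0, 123 and 114 CPM in the WT libraries and 103, 107 and 107 CPM in the Double libraries, with every Double library below every WT library. Its log2 fold change was -0.13 (SE 0.06, 95% interval -0.27 to 0.02; edgeR adjusted p = 0.479). Without WT replicate 1 the log2 fold change of hpo was -0.16 (SE 0.06; edgeR adjusted p = 0.29). With the length trend taken out that of hpo was -0.14 (SE 0.06; edgeR adjusted p = 0.3295). The downstream kinase gene wts read 129, 125 and 137 CPM in the WT libraries and 154, 143 and 143 CPM in the Double libraries, with every Double library above every WT library. Its log2 fold change was 0.17 (SE 0.06, 95% interval 0.02 to 0.32; edgeR unadjusted p = 0.0300, adjusted p = 0.337). With the length trend taken out the log2 fold change of wts was 0.09 (SE 0.06), and without WT replicate 1 it was 0.16 (SE 0.07). The scaffold gene sav read 47.1, 37.8 and 40.9 CPM in the WT libraries and 45.2, 42.6 and 43.8 CPM in the Double libraries. Its Double libraries lay inside the WT range (log2 fold change 0.06, SE 0.10, edgeR adjusted p = 0.821). Without WT replicate 1, its highest library, it was 0.16, and without WT replicate 2, its lowest, -0.01.

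The coactivator gene yki read 77.8, 64.3 and 72.1 CPM in the WT libraries and 76.2, 79.0 and 77.1 CPM in the Double libraries. The highest WT library, replicate 1, lay among the Double libraries (log2 fold change 0.12, SE 0.08, 95% interval -0.07 to 0.30; edgeR adjusted p = 0.607). Without WT replicate 1 it had a log2 fold change of 0.18 (SE 0.08; edgeR adjusted p = 0.315), and without WT replicate 2, its lowest library, 0.05. Leaving out WT replicate 1 thus moved the short gene yki and the long genes ft, ds and ex in opposite directions. The ratio of yki to wts, the coactivator to its inhibitory kinase, was 2.29, 1.96 and 1.997 in WT and 1.88, 2.10 and 2.05 in Double (exact two-sided permutation test, p = 0.7, adjusted 0.933). The ratio of the target ex to yki was 1.87, 2.90 and 2.53 in WT and 2.42, 2.38 and 2.45 in Double (exact two-sided permutation test, p = 1). Both ratios overlapped between the groups, and the mean log2 differences were -0.05 and 0.01. Without WT replicate 1 they were 0.02 and -0.16, and without WT replicate 2 they were -0.09 and 0.15.

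**Figure D4:**
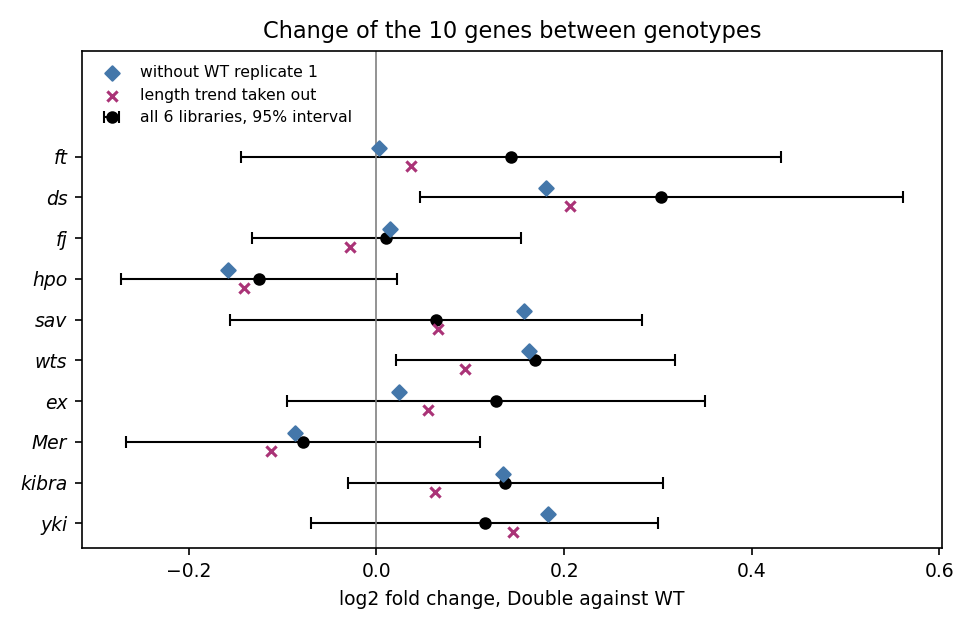
The log2 fold change of each of the 10 genes, Double against WT, with its 95% interval from edgeR (black), without WT replicate 1 (blue diamonds) and with the length trend of each library taken out (crosses). The intervals of ds and wts lie above 0 before adjustment over all genes, and ft and ex move from 0.14 and 0.13 to 0.00 and 0.02 without WT replicate 1.

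Beyond the 10 genes, 0 of 51 tested pathway genes passed in either direction, against 1.49% of all tested genes. The Fat branch effectors (8 tested) had a median log2 fold change of -0.02. Their members with the smallest p were app, the palmitoyltransferase gene approximated, at 79.3, 82.2 and 93.4 CPM in the WT libraries and 95.1, 99.9 and 99.2 CPM in the Double libraries (edgeR adjusted p = 0.321), and dachs. The myosin gene dachs read 600.0, 635 and 616 CPM in the WT libraries and 651, 680 and 677 CPM in the Double libraries, without overlap of the groups (log2 fold change 0.12, SE 0.06, edgeR adjusted p = 0.490). The other upstream Hippo regulators (22 tested) had a median of 0.06. Among them ed, which encodes the cell adhesion protein Echinoid, had the smallest p, at 989, 1044 and 1075 CPM in the WT libraries and 1292, 1191 and 1201 CPM in the Double libraries. It had a log2 fold change of 0.25 (SE 0.07; edgeR adjusted p = 0.169). It was the single pathway gene that DESeq2 called (log2 fold change 0.24, DESeq2 adjusted p = 0.00927), against 312 of the 13080 genes tested there. The phosphatase gene Pez followed, with a log2 fold change of 0.24 (SE 0.08; edgeR adjusted p = 0.278).

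The Yorkie nuclear partners (7 tested) had a median of 0.03, and sd, which encodes the DNA-binding partner Scalloped, read 299.7 to 363 CPM in WT and 333 to 354 CPM in Double. The smallest p values belonged to the coactivator genes Ncoa6, with a log2 fold change of 0.20 (SE 0.11; edgeR adjusted p = 0.527), and mask, with 0.14 (SE 0.12; edgeR adjusted p = 0.686). The exons of mask are 14639 bases long, and it read 829 CPM in WT replicate 1 and 1085 to 1180 CPM elsewhere. The polarity gene scrib, with 17197 bases, likewise read 399.9 CPM there and 488 to 533 CPM elsewhere. The kinase gene par-1, the other tested pathway gene with at least 12 kb of exons, read 351 CPM there and 371 to 393 CPM elsewhere.

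The Yorkie target genes (14 tested of 16 named) had a median of 0.08, with 11 above 0 and 3 below. The smallest p values belonged to vn, an EGFR ligand gene, with a log2 fold change of 0.20 (SE 0.13; edgeR adjusted p = 0.579), and the Notch ligand gene Ser, with 0.08 (SE 0.06; edgeR adjusted p = 0.619). The caspase inhibitor gene Diap1, a classical target, read 575, 481 and 492 CPM in the WT libraries and 512, 473 and 465 CPM in the Double libraries, with overlapping groups (log2 fold change -0.10, SE 0.09, edgeR adjusted p = 0.694). The cyclin gene CycE, another classical target, had a log2 fold change of 0.15 (SE 0.11; edgeR adjusted p = 0.640). Diap1, CycE and sd were named for their standing in the pathway, and scrib and par-1 for their length, after their values were seen. At an unadjusted p under 0.05 stood 1, 2, 0 and 0 genes of the 4 lists in the order given, beside 12.3% of all tested genes. The gene Ilp8 had too few counts to be tested and mir-ban was not analysed here.

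As a description, the 10 genes were averaged as standardized log2 CPM, and the tested genes closest to this mean over the 6 libraries were msl-3, CG42807 and Unc-115a, with Pearson r of 0.995, 0.989 and 0.988. The 10 genes themselves did not share a profile. Between pairs of them Pearson r ran from -0.88 for hpo with yki to 0.98 for ft with ex. With so few libraries, which share depth and scaling between genes, 185 of 8792 genes reached an r of at least 0.9. msl-3, which encodes a dosage compensation protein, read 31.0 to 35.2 CPM in WT and 36.3 to 39.3 CPM in Double, and it did not pass the test (edgeR adjusted p = 0.388).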

How the data were processed

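The authors deposited whole-number counts per gene for each library, not normalized. The submitters' processing notes list STAR 2.7.0, HTSeq and DESeq2, and dm6 as the build, without saying what each did. Annotation release and strand setting of the counting: not given in the sources used here. Of 17612 identifiers 17540 matched the annotation of BDGP6. Exonic length is the union of annotated exons.

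Groups came from the library titles. All genes were fitted with edgeR 4.0.16 in R 4.3.3 (quasi-likelihood F test, TMM factors, filterByExpr, group as the only term) and adjusted by Benjamini-Hochberg over the 8802 tested genes. The fit was tested on simulated data. CPM values are TMM-scaled. Each SE was taken as the log2 fold change over the square root of its F statistic. The length trend was a lowess curve (span 0.3) of each library's deviation against log10 exonic length, used as an offset. Figures were made with matplotlib 3.10.9.

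The 10 genes and the lists were chosen with earlier results of these data known. Named pathway genes are those past the threshold, or the 2 with the smallest p of each list, and 5 others (sd, Diap1, CycE, scrib and par-1) named after their values were seen. In the pathway lists 2 names were brought to the annotation's spelling (dachs, and wap for riq). Alternatives were other scalings and filters, DESeq2 1.42.0, limma-voom (limma 3.58.1), a replicate block, each library left out and the length trend, the last added after seeing the data.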

Additional observations from a re-analysis of the deposited data

How the results depend on the processing

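None of the 10 genes passed in any of the 14 alternatives run, with edgeR, DESeq2 or limma-voom. The smallest adjusted p was that of ds with the length trend taken out, 0.0895. The log2 fold changes of 8 of the 10 genes kept their sign in all 14 alternatives, with ds between 0.18 and 0.38, ft between 0.00 and 0.23, ex between 0.02 and 0.19, Mer between -0.12 and -0.02, kibra between 0.06 and 0.18, hpo between -0.16 and -0.08, wts between 0.09 and 0.20 and yki between 0.05 and 0.18. That of fj (-0.03 to 0.03) kept it in 9 and that of sav (-0.01 to 0.16) in 13. The count of changed genes over the whole table was 131 of 8802 tested, and 312 of 13080 tested with DESeq2 (122 higher and 190 lower). With single libraries left out it was 46 to 157. Leaving out Double replicate 3 gave 46, WT replicate 2 gave 64, WT replicate 3 gave 88, and Double replicates 1 and 2 gave 67 and 69, while leaving out WT replicate 1 gave the 157. DESeq2 also called 1 of the other upstream Hippo regulators, ed, where edgeR called 0. The cause of these differences was not tested.

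The replicate numbers did not pair the libraries throughout. Only WT replicate 3 had its highest correlation with the Double library of the same number. The correlations of same-numbered libraries' deviations from their group means were -0.07, -0.25 and 0.39. With the replicate number as a block, 166 genes had changed and 0 of the 10, and ds had a log2 fold change of 0.31 (edgeR adjusted p = 0.285). Every one of the 10 genes had at least 334 counts in each library, the lowest being sav in WT replicate 2.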
